A study of Mus musculus with 6 samples.

Results

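The genes described are 6 of the 750 measured in mouse mammary tumours: Csf3, which encodes granulocyte colony-stimulating factor (G-CSF), its receptor gene Csf3r, the neutrophil-attracting chemokine genes Cxcl1, Cxcl2 and Cxcl5, and Mpo, which encodes the neutrophil granule enzyme myeloperoxidase. They were chosen by name, with earlier results of these data known. All 6 were found in the table, and all 6 passed the filter, a mean count of 10 or more, as did 627 of the 750 genes. The tumours grew from 300000 cells of 4T1, a mouse mammary carcinoma line, implanted in the left mammary fat pad of female mice. The groups are 3 tumours labelled TTFM, from mice given extracts of a Thai traditional formulary medicine from 2 weeks after implantation, and 3 tumours labelled Saline. The sources used here do not give the host strain, age, dose or length of treatment. All 6 tumours come from this 1 line, in a model labelled CLDX, and were measured as bulk tissue.

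G-CSF is a secreted cytokine that drives the production, survival and release of neutrophils, and it signals through a receptor of the granulocyte lineage that activates the kinase JAK2 and the transcription factor STAT3. CXCL1, CXCL2 and CXCL5 are secreted chemokines that draw neutrophils into tissue through the receptor CXCR2. 4T1 tumours are known for secreting G-CSF and for the large increase in granulocytes that they cause in the host.

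In 5 of the 6 genes, all except Mpo, Saline replicates 1 and 3 lay above every TTFM tumour, while Saline replicate 2 lay among or below the TTFM tumours. That arrangement, described after the values were seen, was found in 14.4% of the 627 tested genes. Mpo had another order, with its highest value in Saline replicate 2. The mean of each of the 6 genes was lower in TTFM than in Saline tumours, from 1.76-fold for Csf3 to 4.27-fold for Cxcl2 in edgeR's fit, where 50.1% of tested genes were lower. Their median log2 fold change was -1.25, against -0.0014 over all tested genes. In edgeR's quasi-likelihood test 0 of the 6 passed after adjustment over all tested genes. That test called 0 genes lower in TTFM tumours over the panel, a background of 0%. At an unadjusted p under 0.05 it gave 3 of the 6 as lower, Csf3r, Cxcl5 and Cxcl2, against 4.47% of all 627 tested genes. DESeq2 gave the same number, 3 of 6, against 4.63%. Limma with trend and edgeR with the replicate number as a block each gave 2 of the 6, Csf3r and Cxcl5, against 3.67% and 3.99% of tested genes, so Cxcl2 was not among them.

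**Figure D1:**
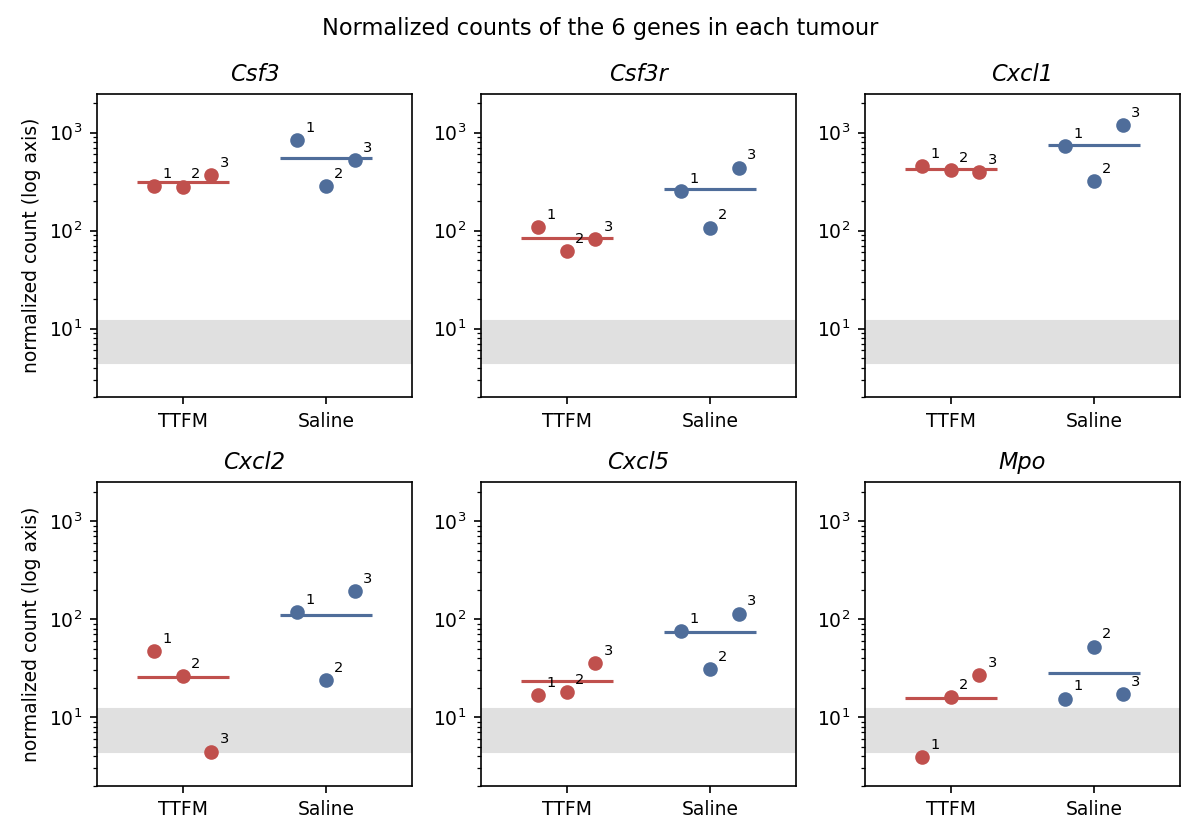
Normalized counts (log axis) of the 6 genes in the 3 TTFM and 3 Saline tumours, with each point labelled by its replicate number and a line at the group mean. The grey band is the range of Uty, a Y-linked gene taken as a background level in these female tumours, though other genes had lower counts. Saline replicate 2 sits among or below the TTFM tumours in every panel except Mpo, where it is the highest of all.

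Totals ran from 333515 to 449460 counts per tumour. Values below are normalized counts, that is, counts scaled to a common effective total (total count times scaling factor), the mean of the 6 tumours. Each log2 fold change sets TTFM over Saline. Saline replicate 2 also stood apart in the collagen genes among the fibroblast markers. The summed normalized count of 7 of 13 listed fibroblast markers was 16976 to 24964 in TTFM tumours, against 7879, 39532 and 2939 in Saline replicates 1, 2 and 3. Collagen genes made up most of this sum, with Col1a1 alone at 4437, 18645 and 1516 in those Saline replicates. Epithelial genes were present in every tumour, with the epithelial cadherin gene Cdh1 at 1082 to 1744 normalized counts in TTFM and 1032 to 1662 in Saline tumours. The labels do not say that each sample came from a separate mouse, so p-values cover the spread between samples, and part of that spread may be technical.

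Csf3, the ligand, had 282, 281 and 369 normalized counts in TTFM replicates 1, 2 and 3, against 834, 283 and 522 in Saline replicates 1, 2 and 3. The 3 TTFM tumours were close to each other, and Saline replicate 2 lay between the lowest and the highest of them. Csf3 averaged 311 ± 50.2 in TTFM and 546 ± 276 in Saline tumours (SD, n = 3 each). The log2 fold change, TTFM over Saline, was -0.82, its standard error (SE) 0.38 and its 95% interval -1.69 to 0.057, with an edgeR adjusted p of 0.801. The difference did not exceed the spread between Saline tumours, where the highest was 2.95 times the lowest, against 1.31 times in TTFM. A two-sided exact permutation test of the log2 values gave p = 0.2, where 3 tumours against 3 cannot go below 0.1. Without Saline replicate 1, the tumour of highest Csf3, the log2 fold change was -0.34.

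Csf3r, the receptor, is a gene of neutrophils and their precursors. It had 108, 62.1 and 82.1 normalized counts in TTFM replicates 1, 2 and 3, against 254, 107 and 438 in Saline replicates 1, 2 and 3. Saline replicate 2 lay just below the highest TTFM tumour, so the groups overlapped by that 1 tumour. Csf3r averaged 84.1 ± 23.0 in TTFM and 266 ± 166 in Saline tumours (SD, n = 3 each), which gave a log2 fold change of -1.66 (SE 0.49) and a 95% interval of -2.80 to -0.53. The edgeR adjusted p was 0.525 and the two-sided exact permutation p was 0.2. In bulk tumour tissue, fewer cells of a type and less RNA per cell cannot be told apart. Without Saline replicate 3, the log2 fold change was -1.09.

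Ligand and receptor had the same high tumours, Saline replicates 1 and 3, with Csf3 highest in Saline replicate 1 and Csf3r in Saline replicate 3. Pearson's r of their log2(normalized count + 1) over the 6 tumours was 0.76.

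**Figure D2:**
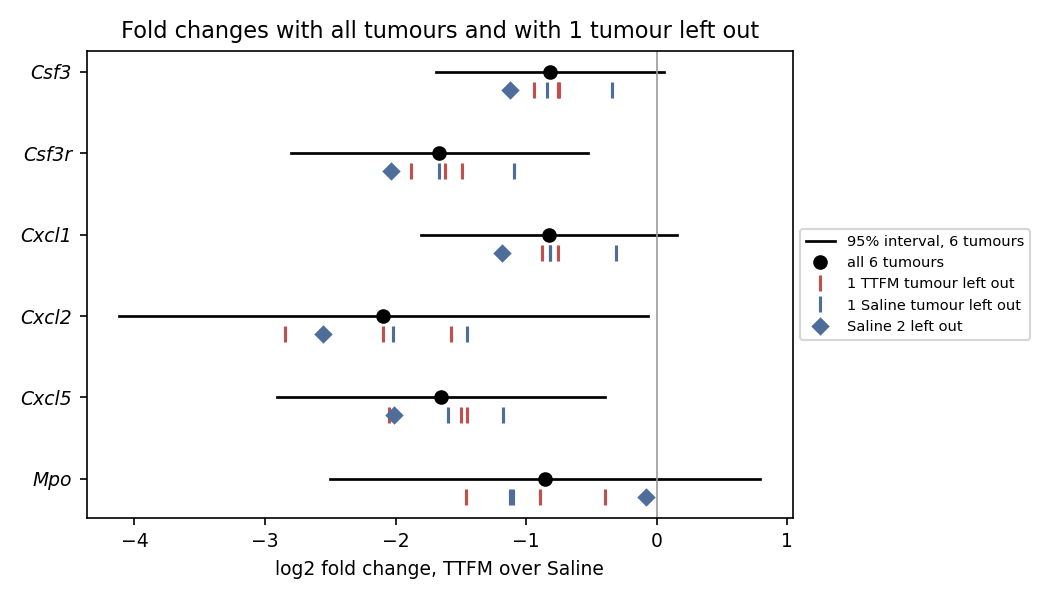
Log2 fold change of each gene, TTFM over Saline, with all 6 tumours (black point, with the 95% interval of edgeR's fit) and with each tumour left out in turn (marks below, red for a TTFM and blue for a Saline tumour, diamond for Saline replicate 2). Leaving out Saline replicate 2 moves Csf3, Csf3r, Cxcl1, Cxcl2 and Cxcl5 further below 0 and brings Mpo to -0.085.

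The 3 chemokine genes lie in 1 cluster on chromosome 5. In the RefSeq gene table of GRCm38.p6, Cxcl1 and Cxcl2 are direct neighbours with 0 genes between them, and 4 genes (Ppbp, Pf4, Cxcl3 and Cxcl15) lie between Cxcl5 and Cxcl1. The sequences just ahead of the start of Cxcl1 and Cxcl2 are shown because these neighbours share a run of letters there. In the 250 bases before each start in RefSeq's promoters of GRCm38.p6, their longest shared run has 14 bases, and its first 10 letters, GGGAATTTCC, are those of a known binding site for NF-kB, a transcription factor of inflammatory signalling. Capitals mark these 10 letters in the 120 bases before each start, read 5′ to 3′ on the plus strand, at chr5:90891125-90891244 for Cxcl1 and chr5:90903779-90903898 for Cxcl2.
Cxcl1: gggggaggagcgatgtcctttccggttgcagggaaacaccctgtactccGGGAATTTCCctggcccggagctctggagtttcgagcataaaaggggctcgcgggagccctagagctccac
Cxcl2: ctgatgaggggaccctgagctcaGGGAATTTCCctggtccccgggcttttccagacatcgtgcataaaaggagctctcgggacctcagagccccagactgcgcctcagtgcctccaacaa
The letters begin 71 bases before the start of Cxcl1 and 97 bases before that of Cxcl2. Searched on both strands, they occur in 28 of 32851 promoters (0.0852%). They occur in 4 tested genes, of which the other two are Nfkbia, which encodes an inhibitor of NF-kB (log2 fold change -0.45, SE 0.26), and Map3k7, which encodes the kinase TAK1 (-0.068, SE 0.26). The promoters of Csf3 and Cxcl5 were not analysed here. The match is a description of the letters only.

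Cxcl1 encodes the chemokine also called KC in mouse. It had 455, 415 and 394 normalized counts in TTFM replicates 1, 2 and 3, against 726, 321 and 1193 in Saline replicates 1, 2 and 3. Saline replicate 2 was the lowest of all 6 tumours, below every TTFM tumour. Cxcl1 averaged 421 ± 30.8 in TTFM and 746 ± 436 in Saline tumours (SD, n = 3 each), so the SD was 7.31% of the mean in TTFM and 58.5% in Saline. This gave a log2 fold change of -0.83 (SE 0.42) and a 95% interval of -1.81 to 0.15 (edgeR adjusted p = 0.864, two-sided exact permutation p = 0.4). Without Saline replicate 3, it was -0.31. The SD of log2 values was larger in Saline than in TTFM for 4 of the 6 members, against 56.8% of tested genes. Cxcl2 (1.63 in TTFM, 1.54 in Saline) and Mpo (1.28 and 0.94) went the other way.

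Cxcl2, which encodes the chemokine also called MIP-2 in mouse, had 47.1, 26.0 and 4.44 normalized counts in TTFM replicates 1, 2 and 3, against 118, 23.9 and 191 in Saline replicates 1, 2 and 3. It had the widest range of the 6 genes, with the highest tumour 43.1 times the lowest. The low end was TTFM replicate 3, with a count of 4 (exact Poisson 95% interval 1.09 to 10.2, counting error only), which is within the 4 to 12 counts of Uty in these female tumours. Cxcl2 averaged 25.9 ± 21.3 in TTFM and 111 ± 84.0 in Saline tumours (SD, n = 3 each), which gave a log2 fold change of -2.09 (SE 0.87) and a 95% interval of -4.12 to -0.068 (edgeR adjusted p = 0.758, two-sided exact permutation p = 0.3). Among all 627 tested genes, no other had a lower log2 fold change. Leaving out 1 tumour moved it to -2.84 at the lowest (TTFM replicate 1 out) and -1.45 at the highest (Saline replicate 3 out).

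Cxcl5, which encodes the chemokine also called LIX in mouse, had 16.7, 18.0 and 35.5 normalized counts in TTFM replicates 1, 2 and 3, against 75.1, 30.7 and 113 in Saline replicates 1, 2 and 3. Saline replicate 2 lay below TTFM replicate 3 and above the other TTFM tumours. Cxcl5 averaged 23.4 ± 10.5 in TTFM and 73.1 ± 41.4 in Saline tumours (SD, n = 3 each), which gave a log2 fold change of -1.65 (SE 0.54) and a 95% interval of -2.90 to -0.39 (edgeR adjusted p = 0.587, two-sided exact permutation p = 0.2). Leaving out 1 tumour moved it to -2.05 at the lowest (TTFM replicate 3 out) and -1.18 at the highest (Saline replicate 3 out).

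The chemokines shared their high tumours but not their order among TTFM tumours. All 3 were highest in Saline replicate 3, next in Saline replicate 1. TTFM replicate 3 held the lowest Cxcl2 and, within its group, the highest Cxcl5. Pearson's r of log2(normalized count + 1) over the 6 tumours was 0.82 for Cxcl1 with Cxcl2, 0.83 for Cxcl1 with Cxcl5 and 0.59 for Cxcl2 with Cxcl5. These 6 points share their libraries and groups, so the values describe likeness only.

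Mpo encodes the granule enzyme that makes hypochlorous acid in neutrophils, and its RNA is made mainly in their precursors in bone marrow. It had 3.93, 16.0 and 26.6 normalized counts in TTFM replicates 1, 2 and 3, against 15.4, 52.3 and 17.2 in Saline replicates 1, 2 and 3. Saline replicate 2 alone stood above the TTFM tumours, and the other Saline tumours lay inside their range. Mpo averaged 15.5 ± 11.4 in TTFM and 28.3 ± 20.8 in Saline tumours (SD, n = 3 each), which gave a log2 fold change of -0.86 (SE 0.71) and a 95% interval of -2.51 to 0.79 (edgeR adjusted p = 0.938, two-sided exact permutation p = 0.5). The raw count was 4 in TTFM replicate 1 and no more than 46 in any tumour, so depth limits this gene. Without Saline replicate 2 the log2 fold change was -0.085, and with counts under 20 raised to 20 it was -0.42.

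Sequences ahead of Csf3r and Mpo are shown because both are granulocyte genes whose values took different orders over the tumours, and both hold letters of a core site for PU.1, a transcription factor of myeloid cells. The letters searched were GAGGAAG on both strands, and capitals mark them. The stretches are 120 bases of RefSeq's GRCm38.p6 promoters, 5′ to 3′ on the plus strand, at chr4:126024539-126024658 for Csf3r, ending at the base before the start, and at chr11:87793534-87793653 for Mpo, beginning 250 bases before the start.
Csf3r: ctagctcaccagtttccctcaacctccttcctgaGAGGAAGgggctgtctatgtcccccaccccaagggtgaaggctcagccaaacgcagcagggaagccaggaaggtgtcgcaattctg
Mpo: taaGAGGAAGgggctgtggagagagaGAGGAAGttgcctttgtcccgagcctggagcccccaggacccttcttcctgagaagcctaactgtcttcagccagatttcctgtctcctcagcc
These letters are common, in 10.6% of the 32851 promoters. The letters TGANTCA of the factor AP-1, where N is any base, are in 6.75% of promoters and in none of the 4 windows of Cxcl1, Cxcl2, Csf3r and Mpo. Csf3r and Mpo had a Pearson's r of -0.063 over the 6 tumours, against 0.92 for Csf3r with Cxcl1 and 0.91 for Csf3r with Cxcl5.

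The call of Csf3r depended on Saline replicate 2. Without that tumour, 1 of the 6 genes passed edgeR's adjusted threshold, Csf3r, at a log2 fold change of -2.04 (SE 0.33, adjusted p = 0.0346), against 2.04% of the 637 genes then tested that were called lower in TTFM. Cxcl5 stood at -2.01 (edgeR adjusted p = 0.0556), Cxcl1 at -1.18 (0.0612), Csf3 at -1.12 (0.0712) and Cxcl2 at -2.56 (0.0934), and none of these passed, nor did Mpo. At an unadjusted p under 0.05, 5 of the 6 were lower, against 9.73% of all 637 genes then tested. The tumour was left out after its values were seen, and the mean of the other Saline tumours over Saline replicate 2 was 2.39 for Csf3, 3.24 for Csf3r, 2.99 for Cxcl1, 6.49 for Cxcl2, 3.07 for Cxcl5 and 0.311 for Mpo. The part of its higher collagen gene levels in these values was not tested.

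The other genes of the pathway were taken from lists. These and the later lists were written with earlier results of these data known, so counts over them are descriptions only. Of 12 listed colony-stimulating and early myeloid growth factor genes other than Csf3 and Csf3r, 6 were tested, with 3 on each side, 0 at an unadjusted p under 0.05 by edgeR and a median log2 fold change of -0.13, against -0.0014 over all tested genes. Among them Csf2, the cytokine gene for granulocytes and macrophages (GM-CSF), stood at -0.67 (SE 0.48). Csf1r, the receptor gene of macrophages, stood at 0.41 (SE 0.31). Without Saline replicate 2, Csf2 stood at -0.045 and Csf1r at 0.71, and the median of the 6 genes turned to 0.064. Csf2 was highest in Saline replicate 2, as Mpo was, with 28.5, 30.1 and 21.1 normalized counts in TTFM and 34.7, 72.8 and 20.6 in Saline replicates 1, 2 and 3.

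Of 37 listed genes of signalling below the G-CSF receptor, 25 were tested, with 11 lower and 14 higher in TTFM tumours and a median log2 fold change of 0.035. At an unadjusted p under 0.05 there were 2 lower, Socs3 and Pim1, against 4.47% of tested genes, and 1 higher, Socs1, against 1.59%, and 0 passed after adjustment. Socs3, a feedback inhibitor of the receptor, had 155, 140.2 and 168 normalized counts in TTFM replicates 1, 2 and 3, against 477, 160.3 and 328 in Saline replicates 1, 2 and 3 (log2 fold change -1.06, SE 0.37). Its tumours stood in the same order as those of Csf3, with Saline replicate 1 highest and Saline replicate 3 next. The survival kinase gene Pim1 stood at -1.26 (SE 0.46) and Bcl2l1, an inhibitor of apoptosis, at -0.74 (SE 0.33). Socs1, another suppressor of cytokine signalling, stood on the other side at 1.01 (SE 0.32). The kinase and transcription factor genes themselves showed smaller values, with Jak2 at 0.24 (SE 0.34) and Stat3 at -0.38 (SE 0.24). Without Saline replicate 2, 3 of the list passed edgeR's adjusted threshold, namely Socs3, Pim1 and Bcl2l1, against 2.04% of genes called lower.

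All 24 of 33 listed inducers of G-CSF and of these chemokines that the table holds were tested, with 17 lower and 7 higher and a median log2 fold change of -0.42. At an unadjusted p under 0.05, 6 were lower and 1, Nras, was higher, against 4.47% and 1.59% of tested genes, and 0 passed after adjustment. As the list was written with earlier results known, its counts are not a test against those shares. Il1b, an inducer of both Csf3 and the chemokines, stood at -1.64 (SE 0.34), the cytokine gene Osm at -1.81 (SE 0.53), the AP-1 subunit gene Fos at -1.39 (SE 0.47) and Nfkbiz, a nuclear cofactor of NF-kB, at -0.90 (SE 0.28). In Il1b the TTFM tumours all lay below the Saline tumours, which was so for 4.31% of all 627 tested genes and for 0 of the 6 members. Saline replicate 2 had 1257 normalized counts of Il1b, above the 459.6 to 803 of the TTFM tumours, while its Csf3 and chemokine counts were within or below the TTFM range. Without that tumour 5 of the list passed the adjusted threshold, namely Il1b, Osm, Irak2, Fos and Nfkbiz, against 2.04% of genes.

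**Figure D3:**
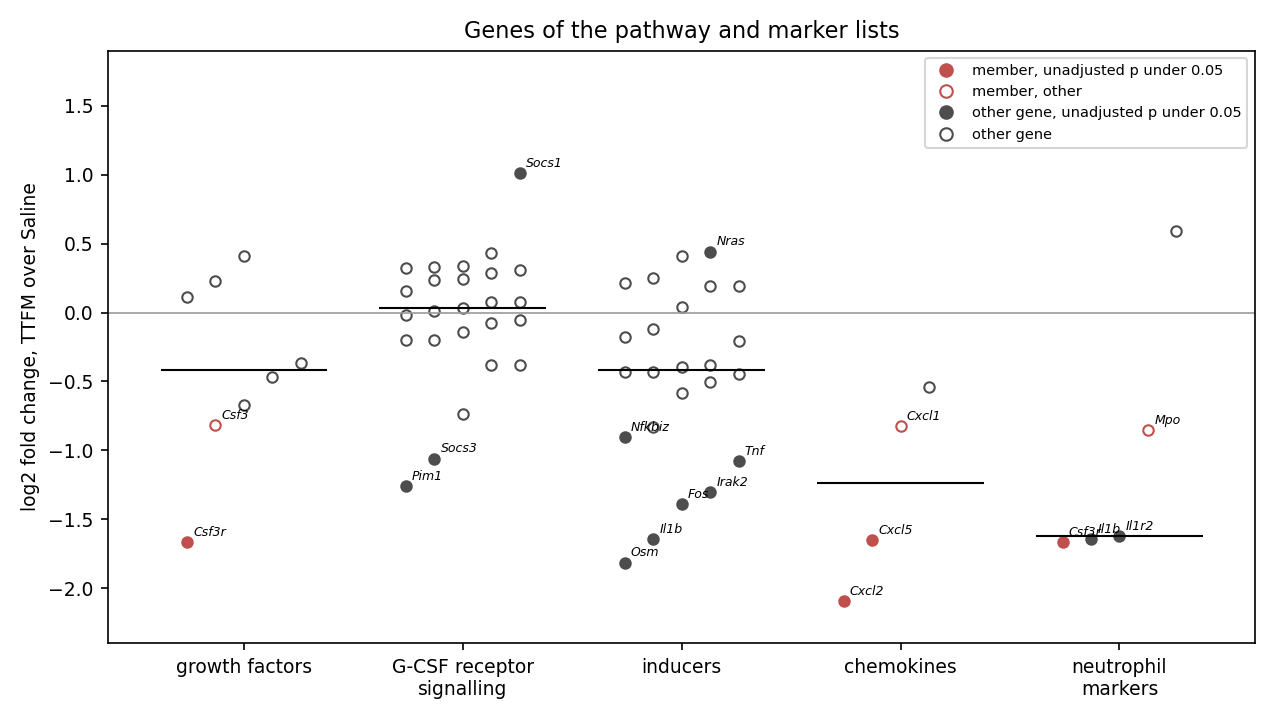
Log2 fold change, TTFM over Saline, of the tested genes of 5 lists, with the 6 members in red, filled points for an unadjusted p under 0.05 in edgeR's test, and a line at the list's median. The medians lie at -0.42 for growth factors and for inducers, 0.035 for receptor signalling, -1.24 for chemokines and -1.62 for neutrophil markers, and 0 of these genes passed after adjustment.

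The table holds 4 of 27 listed chemokine and chemokine receptor genes, the 3 members and Ccr7, a receptor gene of lymphocytes and dendritic cells, at -0.54 (SE 0.44) and at -0.19 without Saline replicate 2. Cxcr2, the receptor gene of the 3 chemokines, was not analysed here. The table holds 5 of 25 listed neutrophil markers, and the median log2 fold change of the 3 that are not members was -1.62. These are Il1b, which is also among the listed inducers, the decoy receptor gene Il1r2 (-1.62, SE 0.40) and the matrix metalloproteinase gene Mmp9 (0.59, SE 0.91). Fibroblasts and tumour cells can also make Mmp9, and which cells made any of the 3 was not tested. Without Saline replicate 2, Mmp9 stood at 2.14, further on the other side from Csf3r. Il1r2 had 49.1, 41.1 and 23.3 normalized counts in TTFM, against 90.5, 88.7 and 172 in Saline replicates 1, 2 and 3, so the groups did not overlap. In Saline replicate 2, Il1r2 was thus above the TTFM tumours while Csf3r was not. The summed level of the 5 neutrophil markers was 1587 to 6047 in TTFM and 3698 to 7014 in Saline tumours, of which Mmp9 held 996 to 5082 in TTFM and 468 to 5509.8 in Saline tumours.

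Markers of other cells were few. Of 12 macrophage and monocyte markers 2 were tested, Cd14 (-1.73, SE 0.53) and Csf1r, with a summed level of 603 to 712 in TTFM and 656 to 1183 in Saline tumours. Cd14, also made by neutrophils, had 157, 145 and 180 normalized counts in TTFM, against 803, 154 and 641 in Saline replicates 1, 2 and 3, the arrangement of Csf3. Of 15 T and NK cell markers 5 were tested, with 0 at an unadjusted p under 0.05 by edgeR and a summed level of 128 to 399.6 in TTFM and 143 to 154 in Saline tumours. Of 8 mast cell and basophil markers 1 was tested, Kit, at 0.11 (SE 0.32). All 7 tested fibroblast markers were above 0 in log2 fold change, with a median of 0.34 and 0 at an unadjusted p under 0.05. Without Saline replicate 2, the tumour whose omission gave the call of Csf3r, the fibroblast median was 1.68, with Col3a1 at 2.57 and Col1a2 at 2.25. The tested fibroblast markers that are not collagens, the receptor genes Pdgfra and Pdgfrb, then stood lower, at 0.47 and 0.80. Endothelial markers (3 of 10 tested) had a median of -0.13 and epithelial markers (5 of 14 tested) of 0.17. No value in the table was 0, the lowest being 1 in every tumour, and the part of these cells in the differences was not tested.

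**Figure D4:**
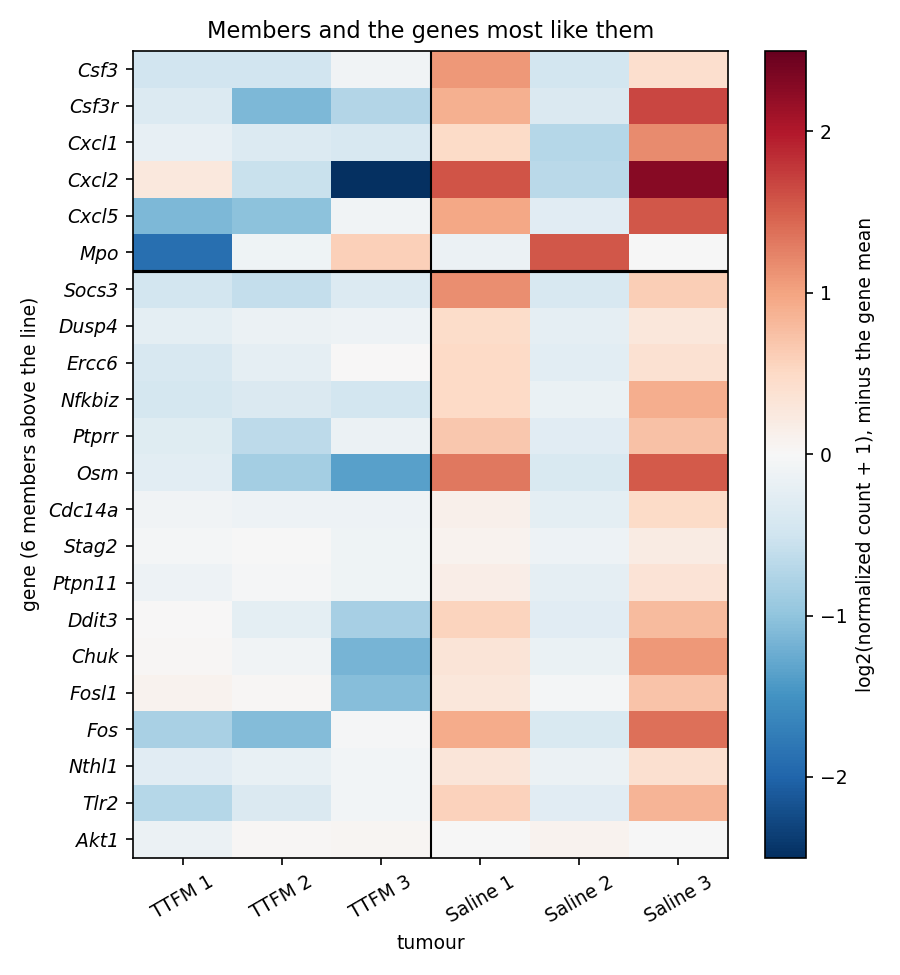
Log2(normalized count + 1) minus the gene's mean over the 6 tumours, for the 6 members above the line and, below it, the 3 genes most like each member (1 gene for Mpo), with TTFM tumours at the left and Saline tumours at the right. Colours stop at 2.5 in either direction, and red cells in Saline replicates 1 and 3 recur in the genes like Csf3, Csf3r and the chemokines. Pearson's r does not measure the size of a difference. Cdc14a, Stag2 and Ptpn11, the genes most like Cxcl1, had small log2 fold changes of -0.27, -0.12 and -0.20.

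The genes whose pattern was most like each member were found by Pearson's r of log2(normalized count + 1) over the 6 tumours, among 626 other tested genes. Csf3 was most like Socs3 (0.98), Dusp4 (0.97) and Ercc6 (0.96). Csf3r was most like Nfkbiz (0.96), Ptprr (0.95) and Osm (0.95). None of the 6 genes was among the 3 genes most like another, and the nearest pair was Csf3r and Cxcl1, with Cxcl1 at rank 13 in likeness to Csf3r. Cxcl1 was most like Cdc14a (0.99), Stag2 (0.98) and Ptpn11 (0.97), whose own log2 fold changes were -0.27, -0.12 and -0.20. Cxcl2 was most like Ddit3 (0.99), Chuk (0.97) and Fosl1 (0.96). Cxcl5 was most like Fos (0.99), Nthl1 (0.98) and Tlr2 (0.98). Mpo was most like Akt1 (0.98). With 626 genes and 6 tumours high values of r are common, and these are descriptions.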

How the data were processed

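The authors deposited 1 table of values for 750 genes in 6 tumours. The deposited values were read as counts, not normalized, because they are whole numbers with a different total in each tumour. The sources used here do not give the platform, the counting or any normalization, and with a lowest value of 1 zeros may have been raised before deposit. Genes with a mean count of 10 or more were scaled by TMM and tested with edgeR 4.0.16 (glmQLFit, glmQLFTest, R 4.3.3), TTFM against Saline, with Benjamini-Hochberg adjustment over 627 genes and a threshold of 0.05. The SE is the fold change over the square root of F. The fit was tested on simulated data with less spread between tumours than these data, so that test does not bear on the calls here. DESeq2 1.42.0, limma 3.58.1, other scalings and filters, a raised floor, a replicate block and leaving out each tumour were alternatives. The members and lists were chosen with earlier results of these data known, so counts over them describe and support nothing further. Named genes are the members, up to 4 genes of smallest p per list and the 3 genes most like each member. A result this rule takes is not reported here. Nras, Jak2, Stat3, Irak2, Nfkbia, Map3k7, Cdh1, Mmp9, Col3a1, Col1a2 and Col1a1 were added for context. All 6 symbols matched RefSeq's GRCm38.p6 table.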

Additional observations from a re-analysis of the deposited data

How the results depend on the processing

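All 6 log2 fold changes stayed below 0 under each of the 15 alternatives that could be run (Mpo has no value at a mean count of at least 50). With all tumours kept, Csf3 ran from -0.88 to -0.69, Csf3r from -1.77 to -1.47, Cxcl1 from -0.94 to -0.63, Cxcl2 from -2.26 to -1.85, Cxcl5 from -1.72 to -1.50 and Mpo from -0.93 to -0.42. With 1 tumour left out, Csf3 ran from -1.12 to -0.34, Csf3r from -2.04 to -1.09, Cxcl1 from -1.18 to -0.31, Cxcl2 from -2.84 to -1.45, Cxcl5 from -2.05 to -1.18 and Mpo from -1.46 to -0.085, and of these only Csf3r without Saline replicate 2 passed. Genes past the adjusted threshold numbered 0 with edgeR, 1 with DESeq2 (no member), 0 with limma with trend and 0 to 14 with 1 tumour left out. Genes at an unadjusted p under 0.05 numbered 38, and 15 to 120 with 1 tumour left out. With the replicate number as a block, Csf3r stood at -1.49 and Cxcl5 at -1.56, 41 genes had an unadjusted p under 0.05 and 0 passed. Deviations of same-numbered tumours correlated at -0.23, 0.44 and 0.26 for numbers 1, 2 and 3, and not every tumour correlated best with its own number. The labels give no pairing. These values cannot decide whether same-numbered tumours were paired, because deviations within a group of 3 constrain each other. Low counts limit Cxcl2, Cxcl5 and Mpo.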
